A study of Medicago truncatula with 9 samples.

Results

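The loci described here are the sugar transporters of Medicago truncatula, a model legume, in its mature dry seeds. They are the loci whose deposited protein description names a sugar, sucrose, hexose, monosaccharide or polyol transporter, a sugar porter or a SWEET protein. This rule takes 106 of 36695 loci, 1 of which is Medtr1g029380, and it uses no measured value. Steady-state RNA was sequenced from 3 genotypes with 3 libraries each. The first mutant is hsfa9-1 (NF10440) and the second is hsfa9-2 (NF13157), both lines with an insertion of the retrotransposon Tnt1 in HSFA9, a heat stress transcription factor gene of seeds. The wild type is R108, in whose background both lines were made, so that every library has the R108 background. Each library held 50 mature seeds, and all genotypes shared the same growth regime, with pods dried at 43% relative humidity and seeds kept at 20 °C until extraction. The labels do not say whether the 3 seed lots of a genotype came from separate plants, so that p-values measure the spread between these lots. Tnt1 lines commonly carry further insertions, and whether they do here was not examined.

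Sugar carriers of plants differ in how they are driven. SWEET proteins are uniporters that let sucrose or hexoses pass a membrane down their gradient in either direction, and in developing legume seeds they take part in releasing sucrose from the maternal seed coat towards the embryo. Sucrose transporters, hexose symporters and polyol transporters instead couple uptake to the proton gradient that the plasma membrane H+-ATPase builds, while tonoplast monosaccharide transporters load hexoses into the vacuole. Nucleotide sugar transporters carry activated sugars into the Golgi and the endoplasmic reticulum for glycan synthesis.

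By description the 106 loci held 15 SWEET loci (bidirectional sugar transporters), 4 sucrose transporters, 5 tonoplast monosaccharide transporters, 3 hexose or monosaccharide transporters, 13 polyol transporters, 20 nucleotide sugar transporters and 46 sugar porters and other sugar transporters. Levels are FPKM, fragments scaled by transcript length and by the mapped fragments of the library, summed over the transcript models of a locus, so that levels of different loci are compared per length. A locus was tested where it had at least 1 FPKM in at least 3 libraries, which 44 of the 106 did. Of the other 62, 59 were below 1 FPKM in every library and 8 of these were listed at 0 throughout, and the highest value among the 62 was 1.33 FPKM. The number of loci with a mean of at least 10 FPKM was 14 in hsfa9-1, 13 in hsfa9-2 and 17 in R108.

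The libraries summed to between 922800.58 and 981284.54 FPKM, and their relative depth lay between 0.982 and 1.01 of the mean, while the absolute depth is unknown. Markers of mature seed tissue (vicilin, legumin, oleosin and late embryogenesis abundant proteins, 99 loci, 8 at 0 throughout) were abundant in all libraries, with sums of 51901 to 63727 FPKM in hsfa9-1, 65666 to 75617 FPKM in hsfa9-2 and 53960 to 59234 FPKM in R108. Within them legumin summed to 4904 to 8270 FPKM in hsfa9-1, 9564 to 11365 FPKM in hsfa9-2 and 9878 to 10852 FPKM in R108, and oleosin to 6234 to 7464, 7180 to 9411 and 3752 to 4681 FPKM in the same groups. The 24 seed coat marker loci of flavonoid synthesis, 1 at 0 throughout, summed to 547 to 557 FPKM in hsfa9-1 and 568 to 724 FPKM in hsfa9-2, against 129 to 154 FPKM in R108. The 94 loci described by nodule-related words, 21 at 0 throughout, summed to 2141 to 2424, 2356 to 3874 and 762 to 966 FPKM in hsfa9-1, hsfa9-2 and R108, of which leghemoglobins, the defining nodule markers, made up 5.85 to 21.8 FPKM over all libraries. The 112 green tissue loci, 2 at 0 throughout, summed to 2320 to 3085 FPKM in hsfa9-1 and 1980 to 2331 FPKM in hsfa9-2, against 3414 to 3690 FPKM in R108. The part of these marker differences in the results was not tested. In whole seeds, fewer cells of a type and less RNA per cell cannot be told apart. Of 42631 transcript models, 0 had a description that names HSFA9, so that whether the mutants lost that transcript was not examined.

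The sugar transporters moved in both directions. The most abundant of them in R108 seeds, the SWEET locus Medtr1g029380, fell to at most 6.68% of its R108 mean in every mutant library, while the sucrose transporter Medtr6g043880 was over 8 times as abundant in either mutant. In hsfa9-1, 13 of the 44 tested loci rose, 20 fell and 11 were not called at an adjusted p of 0.05 in limma. These 33 are 75.0% of the tested members, where 59.5% of all 17508 tested loci were called, 27.6% higher and 31.9% lower. In hsfa9-2, 9 rose, 23 fell and 12 were not called, which is 72.7% where 62.3% of all tested loci were called, 25.8% higher and 36.5% lower. Median-centred libraries gave 14 higher and 21 lower members in hsfa9-2, since centring moved the median log2 change of all tested loci there to 0.03, against -0.10 without it, and with it 32.2% of all tested loci were called higher and 29.0% lower. In hsfa9-1 such libraries gave 14 higher and 18 lower members, where 5531 and 4888 of the 17508 tested loci were called higher and lower. Of the calls in both mutants, 3 that were lower (Medtr4g118610, Medtr1g116660 and Medtr7g113970) and 1 that was higher (Medtr8g077890) belong to loci that reached 1 FPKM only on the side where they are high, and so does the hsfa9-1 call of Medtr2g007890. The lower hsfa9-2 call of Medtr1g098240 is of the same kind, since its hsfa9-2 libraries all stayed below 1 FPKM. The higher calls of Medtr5g006070 in both mutants come near it, since of its R108 libraries the second alone reached 1 FPKM. A locus tested in this way had to differ, so that the counts and medians over the tested members are descriptions.

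The median log2 change over the tested members was -0.26 in hsfa9-1 and -0.39 in hsfa9-2, beside -0.04 and -0.10 over all tested loci. A log2 change here is a difference of group means of log2(FPKM + 1), which understates the change of loci with low levels. Both comparisons use the same R108 libraries. In both of them 9 members rose and 20 fell, which makes 29 of 44 where 53.3% of all tested loci were called in the same direction (23.4% higher, 30.0% lower). A further 4 were called in hsfa9-1 and not in hsfa9-2, 3 in hsfa9-2 and not in hsfa9-1, 8 in neither, and 0 in opposite directions. Of all 17508 tested loci, 1058, 1548, 5548 and 14 belonged to the same groups, in that order. With median-centred libraries 13 members rose and 17 fell in both mutants. All tested loci called in both were not counted in that setting. The balance of directions depended on the scaling for all tested loci too. Without centring 4828 were higher and 5584 lower in hsfa9-1, and 5531 and 4888 with it. In hsfa9-2, 4511 were higher and 6391 lower without centring, and 5634 and 5070 with it. The members beyond a log2 change of 1 numbered 5 higher and 5 lower in hsfa9-1, where 7.65% and 8.47% of all tested loci lay, and 5 higher and 8 lower in hsfa9-2, where 7.8% and 9.58% lay.

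Among the SWEET loci, uniporters for sucrose or hexoses, 1 dominated the wild type. Medtr1g029380 had 3.01, 3.12 and 2.70 FPKM in hsfa9-1 seeds and 20.5, 3.37 and 2.77 FPKM in hsfa9-2 seeds, against 262, 316 and 342 FPKM in R108 seeds. No mutant library came near any R108 library, and the first hsfa9-2 library held several times the level of the other mutant libraries. Relative to the R108 mean, the mutant libraries held 0.982%, 1.02% and 0.881% in hsfa9-1 and 6.68%, 1.1% and 0.903% in hsfa9-2. The group means were 2.94 ± 0.218 FPKM in hsfa9-1, 8.88 ± 10.1 FPKM in hsfa9-2 and 307 ± 41.1 FPKM in R108 (SD, n = 3 each). Medtr1g029380 was 104-fold lower in hsfa9-1, with a log2 change of -6.28 ± 0.53 (SE) and an adjusted p of 4.36e-06 in limma. In hsfa9-2 it was 34.5-fold lower by the means, with a log2 change of -5.43 ± 0.53 and an adjusted p of 1.13e-05, and without the first hsfa9-2 library the log2 change was -6.24 with an adjusted p of 1.49e-09.

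The place of Medtr1g029380 among the transporters changed with its level. It ranked 28, 28 and 29 of the 106 members in the hsfa9-1 libraries and 11, 27 and 27 in the hsfa9-2 libraries, against 1 in each R108 library. Among all 36695 loci it ranked 12934, 12896 and 13308 in hsfa9-1 and 6353, 12537 and 12984 in hsfa9-2, against 543, 470 and 420 in R108. The locus thus stood near the top of the transcripts of wild-type seeds by level. Its deposited orthology term, like that of the other tested SWEET loci, is solute carrier family 50, the family of SWEET proteins.

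The other SWEET loci were near the floor in all genotypes. Medtr2g007890 had 0.84, 1.12 and 1.04 FPKM in hsfa9-1 and 0.99, 1.05 and 0.78 FPKM in hsfa9-2, against 0.33, 0.58 and 0.72 FPKM in R108. All mutant libraries lay above all R108 libraries, but the log2 change was 0.38 in hsfa9-1 (adjusted p 0.041) and 0.34 in hsfa9-2 (adjusted p 0.0627), and the hsfa9-1 call was lost in 7 of the alternative settings, with adjusted p of 0.0504 to 0.143. The hsfa9-2 comparison was newly called in 4 alternative settings, with adjusted p of 0.0145 to 0.045. This locus reached 1 FPKM in mutant libraries alone and was tested through them, so that its calls give no support. Medtr6g007637 had 0.99, 1.07 and 0.76 FPKM in hsfa9-1 and 0.93, 1.23 and 0.45 FPKM in hsfa9-2, against 1.75, 1.14 and 1.30 FPKM in R108, with log2 changes of -0.30 (adjusted p 0.172) and -0.37 (adjusted p 0.0921). The remaining 12 SWEET loci did not exceed 0.87 FPKM in any library, and 5 of them were listed at 0 throughout. Together the 14 SWEET loci other than Medtr1g029380 summed to 2.79 ± 0.565 FPKM in hsfa9-1, 2.44 ± 0.716 FPKM in hsfa9-2 and 2.79 ± 0.445 FPKM in R108 (SD, n = 3 each).

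**Figure D1:**
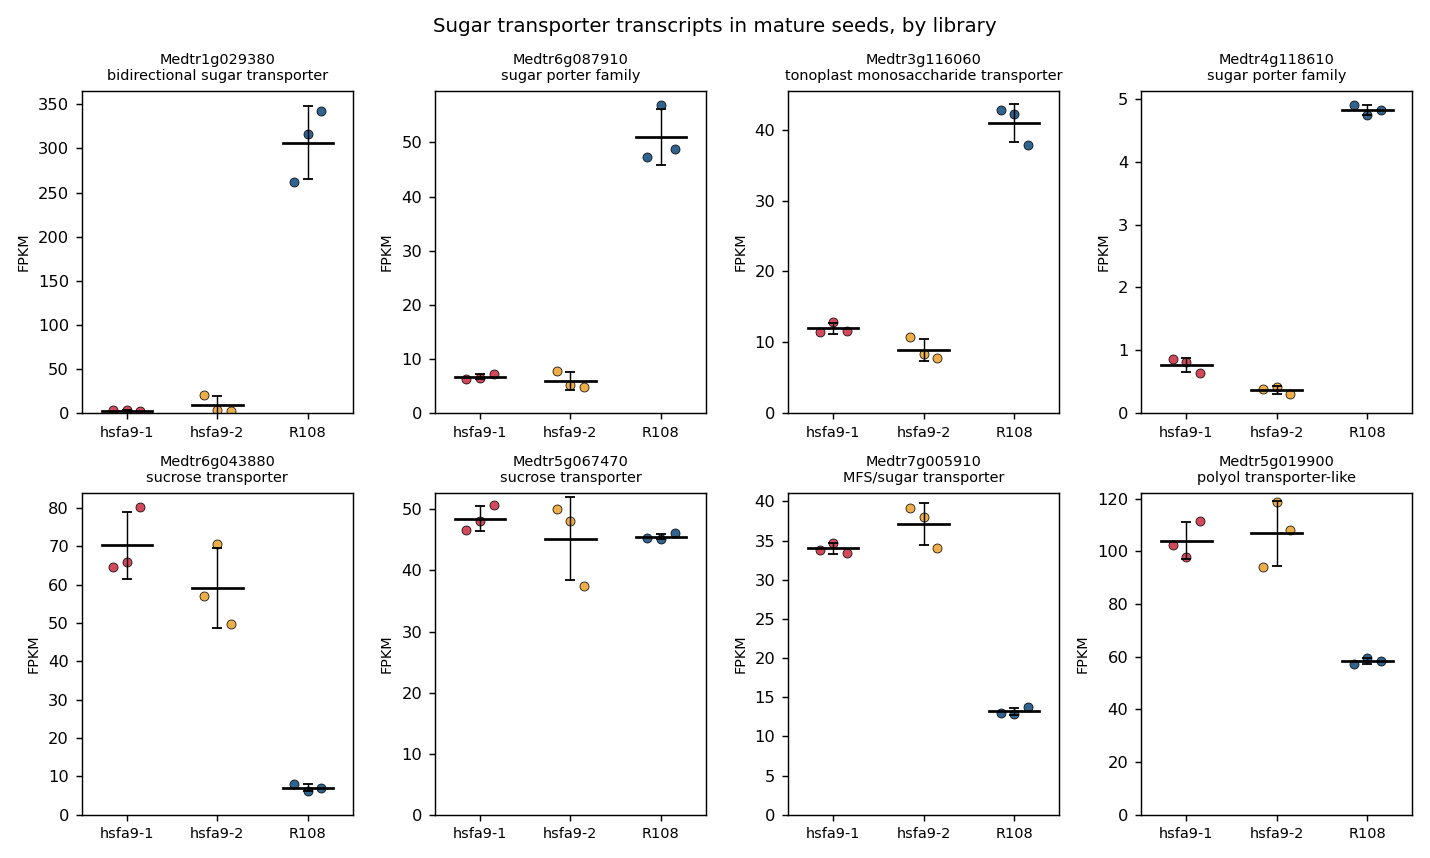
FPKM of 8 sugar transporter loci in each library (points), with the mean (horizontal line) and SD (bar) of the 3 libraries of hsfa9-1, hsfa9-2 and R108, each panel with its own linear axis from 0. Medtr1g029380 stands at 2.70 to 20.5 FPKM in the mutants and at 262 to 342 FPKM in R108, while Medtr6g043880 stands at 49.8 to 80.3 FPKM in the mutants and at 6.23 to 7.95 FPKM in R108.

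Sucrose transporters load sucrose into cells together with a proton. Of the 4 loci described as such, 3 were tested. Medtr6g043880 rose in both mutants, where 23.4% of all tested loci did, and the other 2 did not pass the test. Medtr6g043880 had 64.6, 66.03 and 80.3 FPKM in hsfa9-1 seeds and 57.0, 70.6 and 49.8 FPKM in hsfa9-2 seeds, against 7.95, 6.23 and 7.06 FPKM in R108 seeds. Every mutant library was far above every R108 library, and the mutant groups overlapped. It was 9.93-fold higher in hsfa9-1, with a log2 change of 3.14 ± 0.13 (SE) and an adjusted p of 2.94e-08 in limma. In hsfa9-2 it was 8.35-fold higher, with a log2 change of 2.89 ± 0.13 and an adjusted p of 4.83e-08. It ranked 3 among the members in all mutant libraries, against 19, 23 and 20 in the R108 libraries.

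The second abundant sucrose transporter locus stayed at a similar level across the genotypes. Medtr5g067470 had 46.6, 48.1 and 50.7 FPKM in hsfa9-1 and 50.1, 48.1 and 37.4 FPKM in hsfa9-2, against 45.4, 45.2 and 46.1 FPKM in R108. The log2 change was 0.09 ± 0.10 (SE) in hsfa9-1 with an adjusted p of 0.472, and -0.02 ± 0.10 in hsfa9-2 with an adjusted p of 0.862. The order of the pair was therefore turned round. Medtr6g043880 was 1.39, 1.37 and 1.59 times the level of Medtr5g067470 in the hsfa9-1 libraries and 1.14, 1.47 and 1.33 times in the hsfa9-2 libraries, against 0.175, 0.138 and 0.153 times in the R108 libraries. Medtr8g468330, described as sucrose transporter 2, was low, with 1.34, 1.36 and 1.83 FPKM in hsfa9-1 and 1.30, 1.61 and 1.40 FPKM in hsfa9-2, against 1.29, 1.34 and 1.36 FPKM in R108 (adjusted p 0.505 and 0.681). Medtr4g131920 did not exceed 0.15 FPKM and was not tested.

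Both tested tonoplast monosaccharide transporters, carriers that bring hexoses into the vacuole, fell in both mutants, where 30.0% of all tested loci did. Medtr3g116060 had 11.4, 12.9 and 11.5 FPKM in hsfa9-1 and 10.7, 8.28 and 7.75 FPKM in hsfa9-2, against 42.9, 42.2 and 37.9 FPKM in R108. The mutant libraries lay well below R108, and all hsfa9-2 libraries were below all hsfa9-1 libraries. The log2 change was -1.70 ± 0.11 (SE) in hsfa9-1, a 3.43-fold lower mean, with an adjusted p of 4.62e-07. In hsfa9-2 the log2 change was -2.09 ± 0.11, a 4.60-fold lower mean, with an adjusted p of 1.04e-07. Medtr3g118530, which lies outside the rule for named loci and was named after its values were seen, had 2.57, 2.62 and 3.06 FPKM in hsfa9-1 and 2.84, 2.05 and 1.98 FPKM in hsfa9-2, against 4.65, 4.52 and 4.59 FPKM in R108. Its log2 change was -0.58 in hsfa9-1 (adjusted p 0.00217) and -0.77 in hsfa9-2 (adjusted p 0.000292).

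The 2 tested loci described as hexose or monosaccharide transporters, proton symporters for uptake of single sugars, were lower as well. They were called lower in both mutants, where 30.0% of all tested loci were. Medtr4g116770, a putative hexose transporter, had 4.92, 5.31 and 4.29 FPKM in hsfa9-1 and 5.43, 4.31 and 4.86 FPKM in hsfa9-2, against 11.2, 10.2 and 11.2 FPKM in R108. The mutants were at less than the lowest R108 library throughout, with log2 changes of -1.03 (adjusted p 1.4e-05) and -1.02 (adjusted p 1.32e-05). It shares its protein record with Medtr0204s0040, which was listed at 0 in all libraries, so that reads of such copies could be split between them. The monosaccharide-H+ symporter Medtr4g064807 had 2.57, 1.82 and 1.28 FPKM in hsfa9-1 and 1.57, 0.26 and 1.54 FPKM in hsfa9-2, against 3.62, 3.61 and 4.95 FPKM in R108. The groups did not overlap, but the hsfa9-1 call (log2 change -0.82, adjusted p 0.0244) was lost in 5 alternative settings with adjusted p of 0.0561 to 0.0990, while hsfa9-2 had a log2 change of -1.31 with an adjusted p of 0.00178.

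The polyol transporters, symporters for sugar alcohols and some monosaccharides, had no tested member that fell. Of 4 tested among 13, 3 rose in hsfa9-1, where 27.6% of all tested loci did, and 2 of these also in hsfa9-2, where 23.4% rose in both. Medtr5g019900, described as polyol transporter-like, was the second most abundant member in the mutants, with 103, 97.8 and 112 FPKM in hsfa9-1 and 94.0 to 119 FPKM in the 3 hsfa9-2 libraries, against 57.1, 59.5 and 58.4 FPKM in R108. Every mutant library exceeded the R108 libraries by more than the spread within any group. It was 1.78-fold higher in hsfa9-1, with a log2 change of 0.82 ± 0.09 (SE) and an adjusted p of 1.53e-05, and 1.83-fold higher in hsfa9-2, with a log2 change of 0.86 ± 0.09 and an adjusted p of 1.03e-05. The deposited orthology term of this locus is pectinesterase and does not match its description. Nor do all terms match elsewhere: trehalose 6-phosphate synthase/phosphatase is among those of 1 tested hexose or monosaccharide transporter. The same term stands beside a transporter term for 4 tested sugar porters and others. Medtr8g077890 had 1.43, 1.08 and 1.39 FPKM in hsfa9-1 and 1.08, 1.04 and 1.54 FPKM in hsfa9-2, against 0.33, 0.33 and 0.59 FPKM in R108. It reached 1 FPKM in mutant libraries alone and was tested through them, so that its calls give no support. Medtr8g103500, named after its values were seen, rose in hsfa9-1 (log2 change 0.52, adjusted p 0.00784) and had a log2 change of 0.28 in hsfa9-2 (adjusted p 0.0976). Medtr4g069500, likewise named afterwards, had log2 changes of 0.24 and -0.20 (adjusted p 0.434 and 0.512).

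The sugar porters and other sugar transporters were the most numerous class, and their members moved both ways. Of 20 tested among 46, 7 rose and 10 fell in hsfa9-1, where 27.6% and 31.9% of all tested loci did, and 5 rose and 11 fell in hsfa9-2, where 25.8% and 36.5% did. The same direction held in both mutants for 5 that rose and 10 that fell, and 3 of those that fell were tested through R108 alone. Of those that rose, Medtr5g006070 passed the filter through the mutant libraries. Most of them share the description of a sugar porter family protein of the major facilitator superfamily, which does not tell their substrate or membrane.

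Among the members of the class that reached 1 FPKM in mutant and R108 libraries alike, Medtr6g087910 had the lowest log2 change. It had 6.34, 6.56 and 7.31 FPKM in hsfa9-1 and 7.83, 5.11 and 4.87 FPKM in hsfa9-2, against 47.3, 56.9 and 48.7 FPKM in R108. The mutant groups overlapped each other far below R108. It was 7.57-fold lower in hsfa9-1, with a log2 change of -2.75 ± 0.15 (SE) and an adjusted p of 1.24e-07, and 8.59-fold lower in hsfa9-2, with a log2 change of -2.93 ± 0.15 and an adjusted p of 7.69e-08. Medtr4g118610 had 0.86, 0.81 and 0.64 FPKM in hsfa9-1 and 0.39, 0.42 and 0.30 FPKM in hsfa9-2, against 4.90, 4.74 and 4.82 FPKM in R108. By the means it was 6.26-fold lower in hsfa9-1 and 13.03-fold lower in hsfa9-2. It reached 1 FPKM in R108 libraries alone and was tested through them, so that these values are a description.

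Medtr4g077740 and Medtr4g064820 fell in both mutants. Medtr4g077740 had 9.31, 8.64 and 9.60 FPKM in hsfa9-1 and 8.29, 9.31 and 9.40 FPKM in hsfa9-2, against 16.9, 20.9 and 17.2 FPKM in R108, with log2 changes of -0.92 (adjusted p 1.67e-05) and -0.95 (adjusted p 1.24e-05). Medtr4g064820 had 2.16, 2.00 and 2.35 FPKM in hsfa9-1 and 2.20, 1.44 and 1.64 FPKM in hsfa9-2, against 4.68, 4.48 and 4.64 FPKM in R108, with log2 changes of -0.82 (adjusted p 0.000201) and -1.03 (adjusted p 3.68e-05). No mutant library of either locus reached an R108 library. The other 6 loci of the class that fell in both mutants had log2 changes of -0.69 to -0.37 in hsfa9-1 and -0.87 to -0.40 in hsfa9-2.

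The most abundant transporter of the mutant seeds was Medtr8g077310. It had 193, 193 and 177 FPKM in hsfa9-1 and 187, 192 and 147 FPKM in hsfa9-2, against 137, 121 and 132 FPKM in R108. All mutant libraries were higher than all R108 libraries, though the third hsfa9-2 library came close. Its log2 change was 0.53 ± 0.10 (SE) in hsfa9-1, a 1.45-fold higher mean, with an adjusted p of 0.001, and 0.42 ± 0.10 in hsfa9-2, a 1.35-fold higher mean, with an adjusted p of 0.00384. Medtr8g077300, which carries the preceding locus number, had 3.38, 3.42 and 2.80 FPKM in hsfa9-1 and 3.63, 4.02 and 2.91 FPKM in hsfa9-2, against 0.96, 1.08 and 1.05 FPKM in R108. It too rose in both mutants, at a much lower level than Medtr8g077310, with log2 changes of 1.05 (adjusted p 4.34e-05) and 1.15 (adjusted p 2.01e-05). Medtr8g077300 passed the filter only with mutant libraries, since its first R108 library stayed at 0.96 FPKM.

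The largest rise of the class was that of Medtr5g006070, with 6.13, 5.55 and 5.20 FPKM in hsfa9-1 and 7.0, 6.59 and 4.93 FPKM in hsfa9-2, against 0.85, 1.13 and 0.94 FPKM in R108. It was 5.78-fold higher in hsfa9-1, with a log2 change of 1.75 ± 0.13 (SE) and an adjusted p of 1.42e-06, and 6.34-fold higher in hsfa9-2, with a log2 change of 1.85 ± 0.13 and an adjusted p of 8.54e-07. Of its R108 libraries the second alone, at 1.13 FPKM, reached 1 FPKM. Medtr5g006070 thus passed the filter through the mutant libraries, where it is high, so that its calls give no support. Medtr7g005910, described as an MFS sugar transporter, rose at a higher level. It had 33.8, 34.8 and 33.4 FPKM in hsfa9-1 and 39.2, 38.0 and 34.1 FPKM in hsfa9-2, against 12.9, 12.9 and 13.8 FPKM in R108. The spread within each genotype was small beside the distance to R108, with log2 changes of 1.30 ± 0.07 (adjusted p 1.21e-07) and 1.42 ± 0.07 (adjusted p 6.54e-08). Medtr7g091690 had 10.8, 9.51 and 9.83 FPKM in hsfa9-1 and 10.2, 10.96 and 11.4 FPKM in hsfa9-2, against 4.28, 6.35 and 5.94 FPKM in R108, with log2 changes of 0.77 (adjusted p 0.000327) and 0.88 (adjusted p 0.000128).

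Nucleotide sugar transporters had more members that fell than rose. Of 10 tested among 20, 1 rose and 5 fell in hsfa9-1, where 27.6% and 31.9% of all tested loci did, and 1 rose and 7 fell in hsfa9-2, where 25.8% and 36.5% did. Of these 7, Medtr1g098240 had 0.59, 0.71 and 0.41 FPKM in hsfa9-2, against 1.05, 1.11 and 1.41 FPKM in R108. Apart from the second hsfa9-1 library, at 1.0 FPKM, it reached 1 FPKM in R108 alone, so that its hsfa9-2 call gives the count no support. The exception upwards was Medtr1g030320, with 28.8, 29.7 and 29.4 FPKM in hsfa9-1 and 29.1, 39.5 and 30.1 FPKM in hsfa9-2, against 13.6, 13.1 and 14.7 FPKM in R108. The mutant libraries stood clear of R108, with log2 changes of 1.04 (adjusted p 1.38e-05) and 1.19 (adjusted p 4.6e-06). The most abundant member of the class, Medtr1g026590, had 51.4, 51.0 and 54.1 FPKM in hsfa9-1 and 55.1, 60.1 and 47.5 FPKM in hsfa9-2, against 84.0, 80.3 and 83.6 FPKM in R108. It fell in both mutants without overlap, with log2 changes of -0.65 (adjusted p 5.66e-05) and -0.60 (adjusted p 9.34e-05). Medtr3g095130 had 5.03, 4.70 and 5.02 FPKM in hsfa9-1 and 4.97, 3.32 and 2.60 FPKM in hsfa9-2, against 9.71, 10.9 and 9.52 FPKM in R108, with log2 changes of -0.90 (adjusted p 0.000697) and -1.29 (adjusted p 5.22e-05). Medtr4g114360 had 43.1, 46.1 and 50.4 FPKM in hsfa9-1 and 44.0, 48.2 and 40.6 FPKM in hsfa9-2, against 60.4, 53.0 and 55.0 FPKM in R108. Its groups did not overlap, but the hsfa9-1 call (log2 change -0.27, adjusted p 0.0204) was lost in 5 alternative settings with adjusted p of 0.0529 to 0.0828, while the log2 change in hsfa9-2 was -0.34 with an adjusted p of 0.00579.

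**Figure D2:**
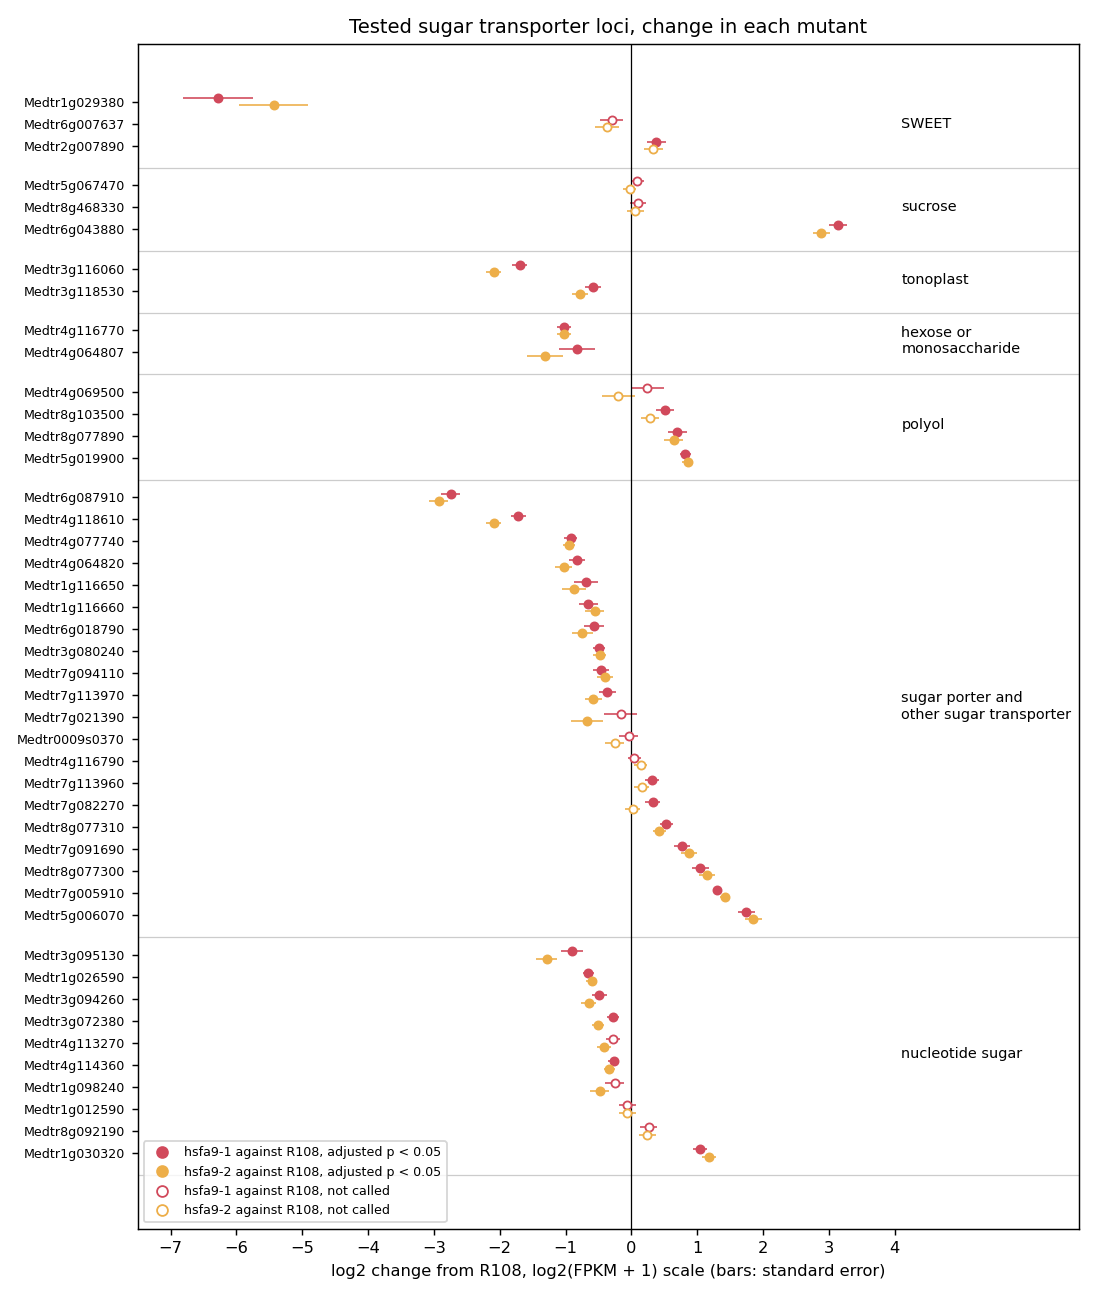
Log2 change from R108 of the 44 tested sugar transporter loci in hsfa9-1 (red) and hsfa9-2 (orange) on the log2(FPKM + 1) scale, with the standard error as a bar, grouped by class. Filled points have an adjusted p under 0.05 in limma. Most loci have both points on the same side of 0, with Medtr1g029380 at -6.28 and -5.43 and Medtr6g043880 at 3.14 and 2.89 as the extremes.

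Summed over all 106 loci, the transporters held less FPKM in the mutants. The sums were 785, 785 and 806 FPKM in hsfa9-1 and 791, 816 and 671 FPKM in hsfa9-2, against 1000.23, 1044 and 1076 FPKM in R108. All mutant libraries were below all R108 libraries, and the difference of the means from R108 was -247.8 FPKM in hsfa9-1 and -280.6 FPKM in hsfa9-2. Medtr1g029380 alone differed by -303.6 FPKM in hsfa9-1 and by -297.7 FPKM in hsfa9-2, which is more than the whole difference. Without it the other 105 loci summed to 789 ± 12.4 FPKM in hsfa9-1, 751 ± 74.4 FPKM in hsfa9-2 and 733 ± 5.71 FPKM in R108 (SD, n = 3 each), so that hsfa9-1 lay above R108 in every library and hsfa9-2 overlapped R108. The loci with the largest gains in FPKM were Medtr6g043880, by 63.2 in hsfa9-1 and 52.1 in hsfa9-2, Medtr8g077310, by 58.1 and 45.7, and Medtr5g019900, by 45.7 and 48.5.

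The share of Medtr1g029380 in the summed transporter FPKM was 0.383%, 0.397% and 0.335% in the hsfa9-1 libraries and 2.59%, 0.413% and 0.413% in the hsfa9-2 libraries, against 26.1%, 30.3% and 31.8% in the R108 libraries. By class, the sucrose transporters summed to 120 ± 11.01 FPKM in hsfa9-1 and 106 ± 16.1 FPKM in hsfa9-2, against 53.9 ± 1.03 FPKM in R108. The polyol transporters summed to 119 ± 6.70 and 118 ± 10.46 FPKM in hsfa9-1 and hsfa9-2, against 69.1 ± 1.30 FPKM in R108. These classes were higher in every mutant library than in any R108 library, and each difference was carried almost wholly by 1 locus. Of the difference in the sucrose class, 66.4 FPKM in hsfa9-1 and 51.9 FPKM in hsfa9-2, Medtr6g043880 made up 63.2 and 52.1 FPKM. Of that in the polyol class, 49.8 and 49.3 FPKM, Medtr5g019900 made up 45.7 and 48.5 FPKM. The tonoplast class summed to 14.8 ± 0.783 FPKM in hsfa9-1 and 11.2 ± 2.01 FPKM in hsfa9-2, against 45.6 ± 2.71 FPKM in R108, and the nucleotide sugar class to 223 ± 6.27 and 216 ± 22.8 FPKM, against 270.5 ± 5.57 FPKM. Both were lower in every mutant library. Of the difference in the tonoplast class, -30.9 FPKM in hsfa9-1 and -34.4 FPKM in hsfa9-2, Medtr3g116060 made up -29.0 and -32.1 FPKM. The sugar porters and others summed to 303 ± 9.41 FPKM in hsfa9-1 and 290.3 ± 33.0 FPKM in hsfa9-2, against 276 ± 0.497 FPKM in R108, with the third hsfa9-2 library at 252 FPKM below R108. The seed coat markers listed at the outset were also higher in every mutant library, and their part in these sums was not tested.

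**Figure D3:**
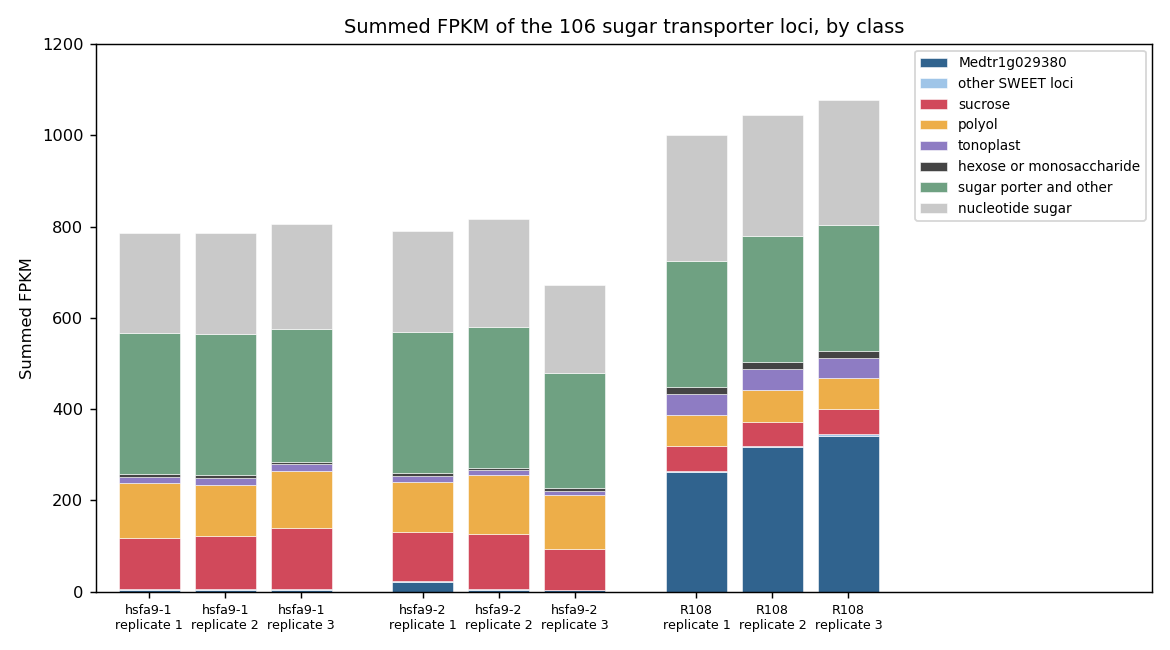
Summed FPKM of the 106 sugar transporter loci in each of the 9 libraries, stacked by class with Medtr1g029380 on its own at the base. The base block is 262 to 342 FPKM in R108 and at most 20.5 FPKM in the mutants, while the sucrose and polyol blocks are larger in all mutant libraries.

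Between the mutants, 0 of the 44 tested members were called in hsfa9-2 against hsfa9-1 in limma, where 1.12% of all tested loci were called, 0.628% lower in hsfa9-2. An unadjusted p under 0.05 was found for 5 members (11.4%), all of them lower in hsfa9-2, and for 14.8% of all tested loci, 10.1% lower. The smallest adjusted p was 0.148. The largest difference was that of Medtr1g029380, with a log2 difference of 0.84 ± 0.53 (SE, hsfa9-2 minus hsfa9-1) and an adjusted p of 0.488, which rests on the first hsfa9-2 library: without it the log2 difference was 0.04. Without that library Medtr3g116060 (log2 difference -0.52, adjusted p 0.0246) and Medtr3g095130 (log2 difference -0.58, adjusted p 0.0442) were called lower in hsfa9-2, a direction in which 1.1% of all tested loci were called without it. Of the 44 differences, 31 (70.5%) were below 0, beside 62.7% of all tested loci, with a median of -0.11 beside -0.05. The third hsfa9-2 library was the lowest of its group in 68.2% of the tested members and in 42.8% of all tested loci, and its part in these differences was not tested.

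The partners of these carriers in sucrose use were read from 61 other loci, the plasma membrane H+-ATPases, sucrose synthases, invertases, hexokinases, 6-phosphofructokinases and sucrose-phosphate synthases, of which 30 were tested. In hsfa9-1, 7 rose, 11 fell and 12 were not called, which is 60.0% where 59.5% of all tested loci were called. Of all tested loci 27.6% were called higher and 31.9% lower there. In hsfa9-2, 7 rose, 13 fell and 10 were not called, 66.7% where 62.3% of all tested loci were called. There 25.8% of all tested loci were called higher and 36.5% lower. Among those that fell, Medtr6g011310, Medtr3g117710 and Medtr4g124660 were tested through R108 alone, and their calls give the counts no support. The shares called were near those of all loci. The median log2 change was -0.09 in hsfa9-1 and -0.27 in hsfa9-2, beside -0.04 and -0.10 over all tested loci.

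The H+-ATPases, pumps that energise sucrose and hexose symport, moved in both directions. Of 5 tested, 3 fell and 1 rose in both mutants, directions in which 30.0% and 23.4% of all tested loci were called in both. Medtr1g009760 had 9.94, 9.84 and 8.23 FPKM in hsfa9-1 and 11.8, 8.35 and 8.45 FPKM in hsfa9-2, against 125, 109 and 120 FPKM in R108, with log2 changes of -3.53 (adjusted p 1.03e-08) and -3.51 (adjusted p 1.04e-08). Medtr4g127710 had 33.1, 30.7 and 26.9 FPKM in hsfa9-1 and 28.5, 23.6 and 24.1 FPKM in hsfa9-2, against 146, 140.2 and 128 FPKM in R108, with log2 changes of -2.16 (adjusted p 4.16e-08) and -2.40 (adjusted p 2.06e-08). Medtr6g011310 had 0.10, 0.15 and 0.11 FPKM in hsfa9-1 and 0.75, 0.21 and 0.19 FPKM in hsfa9-2, against 17.1, 18.3 and 15.6 FPKM in R108. It reached 1 FPKM in R108 libraries alone, so it was tested through them and its call is no support. As for Medtr1g029380, the first hsfa9-2 library was the highest mutant library for Medtr6g011310. That library was the highest of its group in 23 of 44 tested members and in 7059 of 17508 tested loci. The pump that rose, Medtr4g107500, was named after its values were seen, and had 203, 202 and 204 FPKM in hsfa9-1 and 194, 223 and 201 FPKM in hsfa9-2, against 82.5, 77.9 and 76.9 FPKM in R108, with log2 changes of 1.35 (adjusted p 5.79e-08) and 1.37 (adjusted p 5.11e-08).

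Sucrose synthase splits sucrose into fructose and UDP-glucose. Of 5 tested sucrose synthase loci, 3 fell in both mutants, where 30.0% of all tested loci did, 1 of them (Medtr4g124660) tested through R108 alone, and 0 rose, at either an adjusted or an unadjusted p of 0.05 in limma. Medtr7g108930 had 11.01, 10.5 and 9.22 FPKM in hsfa9-1 and 11.6, 10.3 and 9.12 FPKM in hsfa9-2, against 54.2, 54.8 and 52.9 FPKM in R108, with log2 changes of -2.29 (adjusted p 2.3e-08) and -2.28 (adjusted p 2.25e-08). Medtr2g044070, named after its values were seen, had 13.5, 11.9 and 11.2 FPKM in hsfa9-1 and 15.6, 12.4 and 9.86 FPKM in hsfa9-2, against 102, 99.5 and 90.9 FPKM in R108, with log2 changes of -2.90 (adjusted p 5.46e-08) and -2.87 (adjusted p 5.5e-08). Both loci were thus about equally low in the mutants, far from every R108 library. Invertases cleave sucrose into glucose and fructose. Of 7 tested, 2 rose and 2 fell in both mutants, where 23.4% and 30.0% of all tested loci did. Of those that fell, 1 (Medtr3g117710) was tested through R108 alone. The cell-wall invertase Medtr2g099950, also named afterwards, averaged 6.88 ± 2.08 FPKM in hsfa9-1 and 7.97 ± 0.308 FPKM in hsfa9-2, against 1.69 ± 0.404 FPKM in R108 (SD, n = 3 each), with log2 changes of 1.53 (adjusted p 3.29e-05) and 1.75 (adjusted p 1.13e-05). Hexokinases, which phosphorylate glucose, had 2 of 4 tested loci higher in both mutants, where 23.4% of all tested loci were. Lower were 1 in hsfa9-1 and 2 in hsfa9-2, where 31.9% and 36.5% of all tested loci were. The 7 tested 6-phosphofructokinases, enzymes of glycolysis, had 2 higher and 2 lower in both, beside 23.4% and 30.0% of all tested loci. Of 2 tested sucrose-phosphate synthases, enzymes of sucrose synthesis, 0 were called in hsfa9-1 in limma, also at an unadjusted p of 0.05. In hsfa9-2, 1 of them was lower, where 36.5% of all tested loci were.

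The carriers nearest to the members in kind were 6 inositol transporter loci, symporters for a cyclic sugar alcohol, of which 4 were tested. In hsfa9-1, 1 rose and 2 fell, where 27.6% and 31.9% of all tested loci did, and in hsfa9-2, 1 rose and 3 fell, where 25.8% and 36.5% did. Of these, Medtr2g049020 and Medtr2g048720 reached 1 FPKM in R108 libraries alone and so were tested through the group where they are high, and their calls give the count no support. Medtr5g077580 had 96.3, 94.6 and 93.8 FPKM in hsfa9-1 and 81.7, 101 and 91.2 FPKM in hsfa9-2, against 23.6, 25.8 and 26.1 FPKM in R108. It rose to more than any R108 library in every mutant library, with log2 changes of 1.87 ± 0.08 (SE, adjusted p 2.76e-08) and 1.81 ± 0.08 (adjusted p 3.28e-08). Medtr2g049020 was listed at 0, 0 and 0.03 FPKM in hsfa9-1 and at 0.10, 0 and 0 FPKM in hsfa9-2, against 4.34, 4.74 and 4.73 FPKM in R108. Medtr2g048720 had 0.58, 0.26 and 0.32 FPKM in hsfa9-1 and 0.36, 0.49 and 0.45 FPKM in hsfa9-2, against 3.07, 2.61 and 3.41 FPKM in R108. Neither locus had a mutant library near an R108 library.

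**Figure D4:**
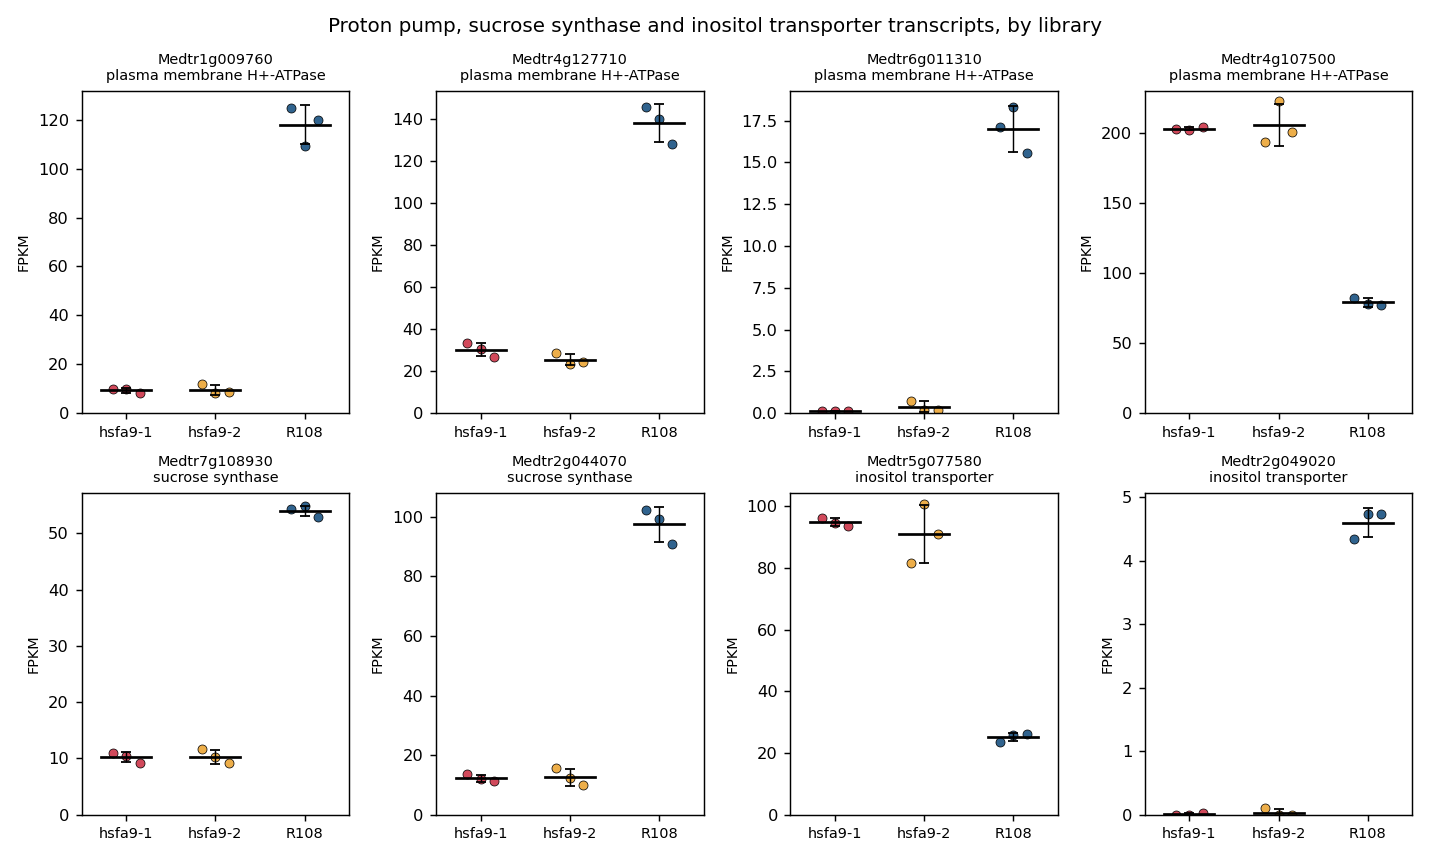
FPKM of 4 plasma membrane H+-ATPases, 2 sucrose synthases and 2 inositol transporters in each library (points), with mean (line) and SD (bar) of the 3 libraries of hsfa9-1, hsfa9-2 and R108, each panel with its own linear axis from 0. Medtr4g107500 and Medtr5g077580 are higher in all mutant libraries, at 194 to 223 and 81.7 to 101 FPKM, and the other 6 loci are lower.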

How the data were processed

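The authors deposited FPKM values of 42631 transcript models with 2 decimals for the 9 libraries, per the file headers. HISAT, HISAT2, Bowtie2 and RSEM are named in the submitters' processing notes, without a version or a role for any. Which genome build, annotation or filter the authors used is not given in the sources used here. Libraries were made from enriched mRNA and sequenced on BGISEQ-500 with 50 bp reads, at a stated average of 24 M reads per library, per the labels' protocols.

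FPKM was summed per locus (36695 loci). The test kept 17508 loci that reached 1 FPKM in 3 or more libraries and compared log2(FPKM + 1) in limma 3.58.1 (statmod 1.5.0, R 4.3.3) with all 9 libraries in 1 fit, using robust moderation and a mean-variance trend. All adjusted p-values come from this test, with Benjamini-Hochberg adjustment over the 17508 loci of each comparison and a threshold of 0.05. The script was tested on simulated data. No counts were used, so absolute depth is unknown. Relative depth was estimated from steps between low FPKM values in at most 581 models, with an error of at most 0.126% on simulated libraries.

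The members, classes and lists were chosen with earlier results of these data known. Named loci are all tested SWEET and sucrose transporter loci and the 6 most abundant members. To these come, per mutant and direction, up to 8 called members with the largest change whose libraries do not overlap R108, and per mutant the 3 loci of lowest p in the pathway and inositol lists. Alternatives changed the pseudocount, filter, scaling, centring, moderation, libraries in the fit and replicate block. Leaving out the 100 most abundant loci was added after seeing the data. The word fructokinase matched 6-phosphofructokinases, which are reported as such. No sequences are shown.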

Additional observations from a re-analysis of the deposited data

How the results depend on the processing

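Over all alternatives, 0 of the named loci changed direction where called in the main test. Of their comparisons with another setting, 1338 kept their side of the threshold, 7 were newly called and 17 lost the call. The lost calls were those of Medtr2g007890, Medtr4g064807 and Medtr4g114360 in hsfa9-1. With a stricter filter, a mean of at least 5 FPKM, fewer loci were tested, 26 of them members. Of these, 21 were called in hsfa9-1, 18 in hsfa9-2 and 18 in both in the same direction. Among all 11521 loci tested with this filter, 7579 were called in hsfa9-1 and 7952 in hsfa9-2. All loci called in both mutants were counted in the main test alone. Counts of members called in both thus stand without a share of all loci in every alternative given here. The 1 inositol transporter tested there was called in each mutant. Without a filter 5 of 6 inositol transporters were called in hsfa9-1, where 10756 of 33625 loci were called. Leaving out 1 library at a time gave 27 to 30 members called in hsfa9-1, 30 to 33 in hsfa9-2, 25 to 29 in both and 0 to 2 between the mutants, 17 to 19 and 19 to 21 pathway loci, and 3 and 3 to 4 inositol transporters. Of all 17508 tested loci, these fits called 9418 to 9648 in hsfa9-1, 9915 to 10538 in hsfa9-2 and 94 to 324 between the mutants. The 2 members between the mutants appeared without the first hsfa9-2 library. Same-numbered libraries had correlations of their deviations between -0.125 and 0.096, beside -0.101 to 0.094 for libraries of different number. No pairing by number was seen in these values, which cannot exclude one. With replicate number as a block, 31 members were called in hsfa9-1, 31 in hsfa9-2, 29 in both and 0 between the mutants, 19 and 20 pathway loci, and 3 inositol transporters in each mutant. In that fit 10213 of all 17508 tested loci were called in hsfa9-1, 10716 in hsfa9-2 and 145 between the mutants. With 3 libraries per genotype and unknown absolute depth, changes of loci near 1 FPKM are the least certain.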

Other observations

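In Medtr8g077310, the most abundant transporter of the mutants, the second model and the last one carried nearly all of the signal. The second model had 133 ± 7.35 FPKM in hsfa9-1 and 126 ± 3.06 FPKM in hsfa9-2, against 87.5 ± 4.47 FPKM in R108 (SD, n = 3 each). Its share of the locus was 66.04% to 73.7% in hsfa9-1 and 66.5% to 84.1% in hsfa9-2, against 62.6% to 74.4% in R108, so that the ranges overlapped. The last model had 23.3 FPKM in the third hsfa9-2 library, against 62.8 and 62.1 FPKM in the other hsfa9-2 libraries.

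A group of loci reached 1 FPKM, the level set by the test filter, on 1 side alone. The sugar porters Medtr4g118610, Medtr1g116660 and Medtr7g113970 reached 1 FPKM in R108 libraries alone, and the polyol transporter Medtr8g077890 and the SWEET locus Medtr2g007890 did so in mutant libraries alone. Outside the transporters, the H+-ATPase Medtr6g011310, the invertase Medtr3g117710, the sucrose synthase Medtr4g124660 and the inositol transporters Medtr2g049020 and Medtr2g048720 reached 1 FPKM in R108 libraries alone. These loci passed the filter through the side where they are high, and they were noticed after their values were seen.

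The sugar porters Medtr7g113960 and Medtr7g113970 carry consecutive locus numbers and differed in the direction of their values in hsfa9-1. Medtr7g113960 had 8.87, 9.95 and 8.34 FPKM in hsfa9-1 and 9.34, 7.71 and 7.07 FPKM in hsfa9-2, against 6.87, 6.74 and 7.62 FPKM in R108 (log2 change 0.31, adjusted p 0.0317 in hsfa9-1; 0.16, adjusted p 0.246 in hsfa9-2). Medtr7g113970 had 0.83, 0.89 and 0.87 FPKM in hsfa9-1 and 0.74, 0.72 and 0.39 FPKM in hsfa9-2, against 1.46, 1.28 and 1.47 FPKM in R108. It was tested through R108 alone, where it is high, so that the contrast of the pair is a description. Pairs of untested members, Medtr6g007340 with Medtr7g446340 and Medtr3g074330 with Medtr3g074360, share a protein record and were listed with identical values in all libraries.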
